A study of Mus musculus with 37 samples.

Results

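Lung RNA of the mouse strain C57BL/6J (B6) was compared between E18.5, the last sampled day before birth in this strain, and E17.5. The series is a time course of 37 arrays from B6 lungs and from lungs of the longer-gestation strain A/J, and 7 of these arrays, 4 at E18.5 and 3 at E17.5, make up the comparison described here. By the study's methods, each replicate was a pool of the right lungs of 3 male fetuses of 1 litter, and each group held 3 litters. The 3 replicates of a group are thus separate pools, and their spread is that between litters, not between single animals. Both groups were untreated animals of 1 strain, and age was the only labelled difference between them. An additional array at E18.5, titled 2b, was averaged with array 2 as 1 replicate, which gave 3 replicates at E18.5 against 3 at E17.5. Its origin is not given beyond that title, so whether it repeats the pool of array 2 is not known. A/J lungs of the same pooling, 3 replicates on each of the days E17.5 to E19.5, are used to show where the B6 step differed. Of 35556 probe sets on the array, the 21789 with exactly 1 gene symbol, standing for 19938 genes, were tested. Values are log2 expression after robust multichip averaging, so a difference of 1 is a doubling, and the levels of different genes cannot be set against each other.

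In the saccular stage the distal tubules of the fetal lung widen into thin-walled sacs. Type II cells fill with lamellar bodies and begin to secrete surfactant, the lipid and protein film that keeps the air spaces open, type I cells flatten against a growing capillary net, the epithelium turns from secreting to absorbing liquid, and the tissue slows its growth. Defense proteins of the airway and alveolar lining also accumulate before the first breath.

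The arrays carried the lung's own markers. At E18.5 the means of Sftpb and Sftpa1, made by type II cells, and of Ager, made by type I cells, stood at percentile 99.9 of all genes, and that of the lung transcription factor Nkx2-1 at percentile 92.1, ranks that serve only as a rough check of the tissue. Array 2 at E18.5 stood apart. It correlated with arrays 1 and 3 of its own group at r = 0.988 over all probe sets, about as with the 3 arrays of E17.5 (0.986 to 0.989), whereas arrays 1 and 3 correlated with each other at 0.994 and array 2b with both at 0.993. Arrays 2 and 2b correlated with each other at 0.993, so 2b was no closer to array 2 than to arrays 1 and 3. Results below rest on the mean of arrays 2 and 2b, and counts without either are given. Of the markers of neighbouring organs, liver, skeletal muscle and thymus lists had medians within 0.1 of 0 between the ages, while 10 esophagus and upper airway genes were high in replicates 2 and 3 of E17.5 (list means of 5.82, 6.01 and 5.53 at E18.5 against 5.86, 6.46 and 6.94 at E17.5), and the mean of 10 heart genes was 7.97, 7.94 and 8.28 at E18.5 against 7.45, 7.68 and 7.47 at E17.5. Of the heart genes only Ryr2 passed the test, and Nppa read 8.89 in replicate 3 of E18.5 against 6.15 in replicate 1 and 6.22, 6.37 and 6.13 at E17.5. Within the liver list replicate 2 was the highest at both ages (list means of 6.27, 6.61 and 6.25 at E18.5 against 6.07, 6.82 and 6.14 at E17.5), with the albumin gene Alb at 8.90 in replicate 2 of E17.5 against 6.11 and 6.52 in replicates 1 and 3.

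At E18.5, 604 probe sets (586 genes) were higher and 350 (345 genes) lower than at E17.5 at an adjusted p under 0.05 by limma and a fold of at least 1.5, which is 2.77% and 1.61% of those tested. A fold of 2 was passed by 111 higher and 52 lower probe sets. At the adjusted p alone, 12.7% of all probe sets were higher and 11.0% lower, and these 2 shares are the background for the gene lists below, in which "rose" and "fell" stand for an adjusted p under 0.05. The median change over all probe sets was -0.03 and the 5th and 95th percentiles were -0.40 and 0.48 (log2). The replicates of a gene had a median SD of 0.12 at E18.5 and 0.10 at E17.5. Without array 2b the counts were 504 higher and 312 lower, and without array 2 they were 767 and 408. In whole lung, more RNA per cell and more cells of a type cannot be told apart.

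The largest rise of any gene was that of Inmt, which encodes indolethylamine N-methyltransferase. Inmt measured 10.05, 9.56 and 11.04 at E18.5 against 6.41, 6.09 and 6.25 at E17.5, a change of 3.97 (SE 0.30, 15.6-fold, limma's adjusted p = 2.2e-10). All 3 replicates of E18.5 lay more than 3 log2 units above every replicate of E17.5, although they differed among themselves more than those of most genes. At E17.5 the means of Inmt, Pon1, Spink5 and C6 lay below 6.42, the level under which probe sets were counted as dim. This level lies close to the median of all values (6.41), and background may limit a fold below it. Pon1, the paraoxonase that hydrolyses lactones and oxidized lipids, measured 8.11, 7.44 and 8.60 at E18.5 and 5.70, 5.15 and 5.33 at E17.5 (6.31-fold, adjusted p = 1.2e-08). Scgb1a1, the secretoglobin of club cells, measured 12.03, 11.72 and 12.30 at E18.5 and 9.62, 9.36 and 9.11 at E17.5 (6.28-fold, adjusted p = 1.8e-05). In each of these genes replicate 2, the mean of arrays 2 and 2b, was the lowest of its group and still far above E17.5. The others of the 12 largest rises were Chil1, a chitinase-like protein (5.95-fold), Gdpd2, a glycerophosphodiesterase (5.56-fold), Car4, a membrane carbonic anhydrase of capillary endothelium (5.39-fold), the lysozyme Lyz1 (4.96-fold), Lcn2, which withholds iron from bacteria (4.5-fold), Gpx3, a secreted glutathione peroxidase (4.03-fold), Spink5, a protease inhibitor (3.90-fold), Hdc, the enzyme that makes histamine (3.79-fold), and the terminal complement component C6 (3.69-fold). Lyz1 and Lyz2 are close paralogs, and their probe sets may share signal.

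Falls were smaller than rises. Cldn6, a claudin of embryonic epithelia, measured 7.76, 7.86 and 7.43 at E18.5 against 9.05, 9.25 and 9.57 at E17.5, a change of -1.61 (SE 0.15, 3.05-fold lower, limma's adjusted p = 1e-08). Fbn2, the fibrillin of fetal elastic microfibrils, measured 9.14, 9.59 and 8.94 at E18.5 and 10.76, 10.59 and 10.70 at E17.5 (2.75-fold lower, adjusted p = 8.6e-08), and Vcan, a large matrix proteoglycan, measured 8.34, 9.05 and 8.45 at E18.5 and 9.93, 10.03 and 10.10 at E17.5 (2.65-fold lower, adjusted p = 2.9e-07). The 12 largest rises and 12 largest falls were taken only from called genes whose replicates did not overlap between the ages. Their separation was thus set by the choice. The other 9 of the 12 largest falls were genes of dividing cells: the spindle motors and spindle proteins Kif11, Kif2c and Spag5, the checkpoint kinases Bub1 and Chek1, the replication factors Mcm3 and Pclaf, the condensin subunit Ncapg and the linker histone H1f5, with changes between -1.51 and -1.25. All 24 of these rises and falls kept an adjusted p under 0.05 when each of the 6 replicates was left out in turn. Pclaf has 2 probe sets, and only the one with the higher mean was used.

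**Figure D1:**
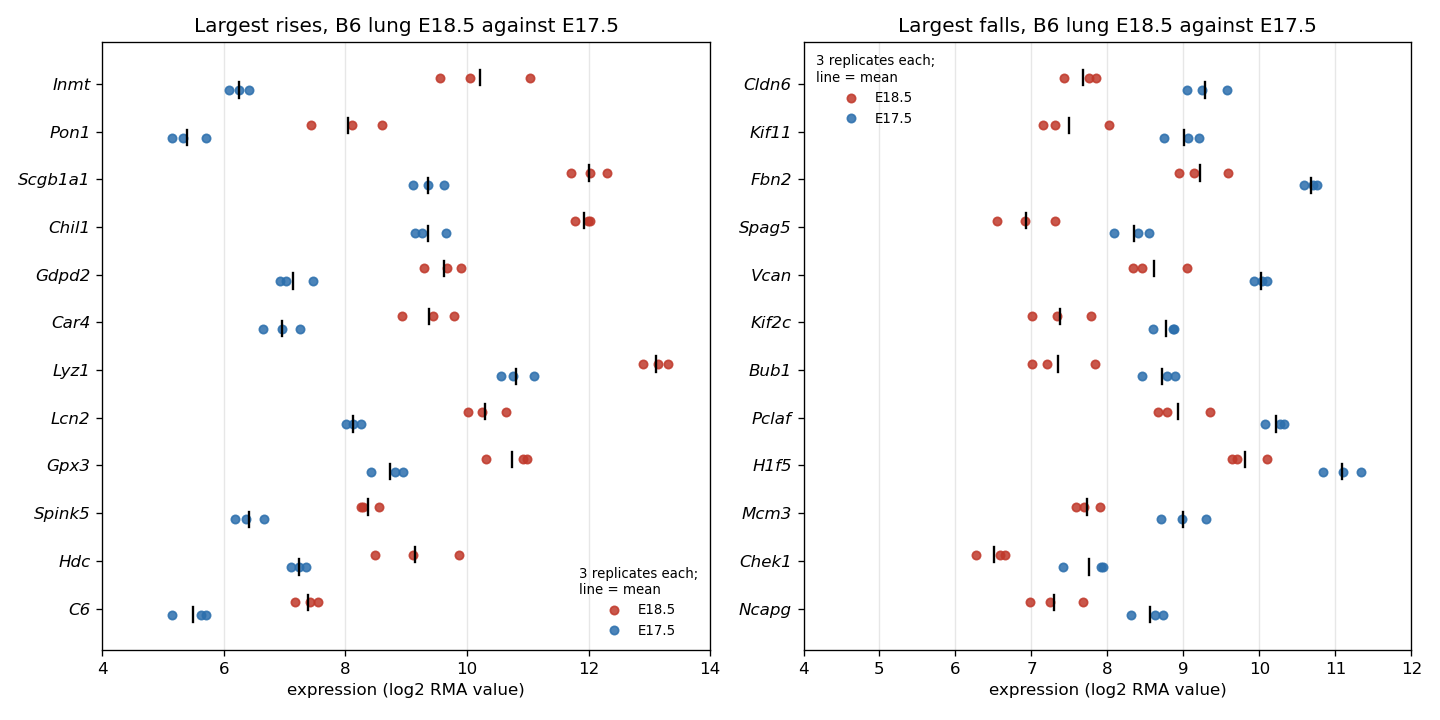
Log2 expression in B6 lung of the 12 most increased and the 12 most decreased genes. Only called genes whose replicates did not overlap between the ages were eligible. A point stands for each of 3 replicates at E18.5 and at E17.5, and a line for each mean. Inmt, with a change of 3.97, stands out.

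Most surfactant genes rose. The study named several of them from these samples, among them Sftpa1, Sftpb and Sftpd, whose direction is therefore not independent evidence. The surfactant and lamellar body list had 18 measured genes, of which 12 rose and none fell (median change 0.43, range -0.07 to 1.56), and 10 of the 12 did so in all 6 fits without 1 replicate. Sftpd, a collectin of the alveolar lining, measured 10.06, 9.63 and 10.16 at E18.5 against 8.71, 8.25 and 8.20 at E17.5 (1.56, SE 0.16, 2.96-fold, limma's adjusted p = 5.1e-08). Sftpb, which spreads the lipid film, measured 12.78, 12.38 and 12.85 at E18.5 against 11.75, 11.57 and 11.58 at E17.5 (2.05-fold, adjusted p = 2.6e-05), and Sftpa1, the most abundant collectin of surfactant, 12.84, 12.64 and 13.02 against 12.11, 12.07 and 11.95 (1.73-fold, adjusted p = 0.00053). The ages did not overlap in any of these. Sftpc measured 13.8, 13.86 and 13.87 at E18.5 and 13.82, 13.74 and 13.76 at E17.5, with a change of 0.07 (adjusted p = 0.634) and overlapping replicates. Sftpc, the surfactant protein made by type II cells alone, read among the highest values of these arrays in all 6 replicates, and whether the top of the measuring range limited its change was not tested.

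The enzymes that process and pack surfactant changed by less. The lysosomal proteases Ctsh and Napsa, which mature the hydrophobic surfactant proteins, rose by 0.80 and 0.62. The lamellar body membrane protein Lamp3 rose by 0.74, the lysophosphatidylcholine acyltransferase Lpcat1 by 0.46 and the lipid transporter Abca3 by 0.38. Pla2g1b, a secreted phospholipase, rose by 0.93 (1.90-fold, limma's adjusted p = 8.3e-08). Slc34a2, the phosphate transporter of type II cells, changed by 0.51 without passing the test (adjusted p = 0.139), though its replicates did not overlap. Of 27 genes of fatty acid and phosphatidylcholine synthesis, 12 rose and none fell. The study named members of this list from these samples too, among them Scd1. Scd1, the desaturase that makes monounsaturated fatty acids, measured 11.52, 11.65 and 11.75 at E18.5 against 10.41, 9.85 and 9.57 at E17.5 (3.24-fold, adjusted p = 6.4e-08), the largest change of that list. Elovl1, an elongase, rose 1.92-fold, the fatty acid carrier Fabp5 rose 1.89-fold, and Chpt1, a cholinephosphotransferase that makes phosphatidylcholine, rose 1.66-fold. Of 17 genes of cholesterol synthesis and uptake, 2 rose and 2 fell, and the median change was 0.00.

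Of 19 type II cell genes, 16 rose and 1 fell, and 17 had E18.5 replicates wholly above those of E17.5, which 16.9% of all probe sets did. The list mean was 11.03, 10.87 and 11.16 at E18.5 against 10.25, 10.08 and 10.01 at E17.5, so no replicate of E18.5 reached down to E17.5. Besides Chil1, the lysozymes and Sftpd, the largest rises were those of Il33, an alarmin cytokine (2.37-fold), Cxcl15, a chemokine of lung epithelium (2.04-fold), and S100g, a calcium-binding protein (1.93-fold). The member that fell was Egfl6, by 0.43 (limma's adjusted p = 0.0101), and its call was lost without replicate 1 of E18.5 (-0.34, adjusted p = 0.0705) or without replicate 2 of E17.5 (-0.38, adjusted p = 0.0553).

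Of 19 type I cell genes, 13 rose and 2 fell. The proteoglycan Spock2 rose 2.10-fold, the water channel Aqp5 1.91-fold, and the mucin-like surface protein Pdpn 1.52-fold. Ager, the receptor that marks type I cells, rose by 0.51, with 12.76, 12.42 and 12.78 at E18.5 and 12.26, 12.05 and 12.13 at E17.5. The caveolin Cav1 (0.14, limma's adjusted p = 0.300) and the homeodomain protein Hopx (0.26, adjusted p = 0.103) did not pass. Igfbp2, which binds insulin-like growth factors, fell 1.62-fold. The claudin Cldn18 rose by 0.36, but not without replicate 3 of E18.5 (0.30, adjusted p = 0.0648).

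**Figure D2:**
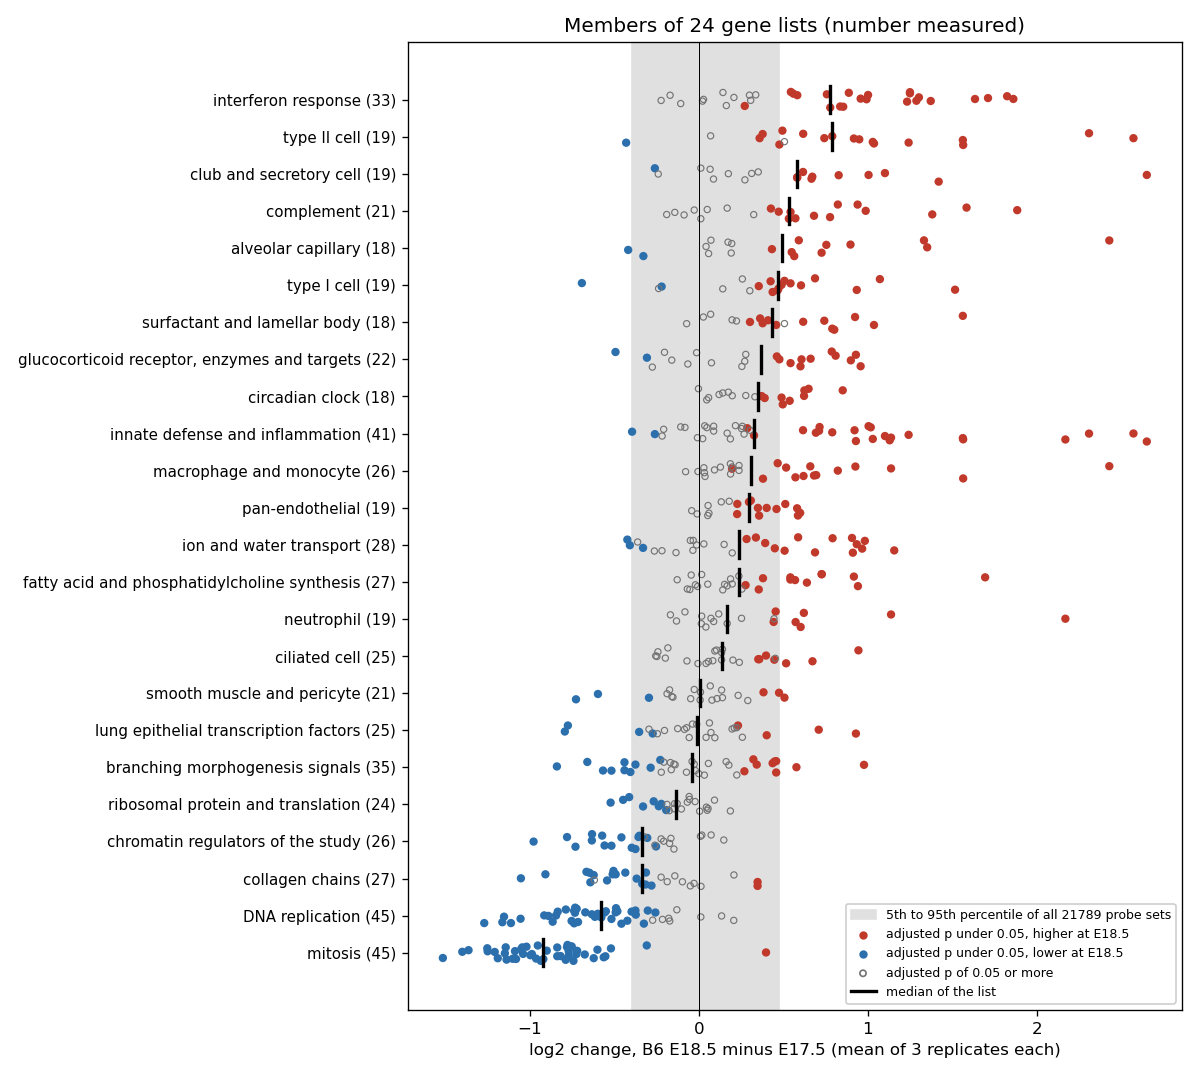
Log2 change between E18.5 and E17.5 in B6 lung of each measured member of 24 gene lists, with a bar at the list median and a shaded band between the 5th and 95th percentiles of all probe sets. Most members of the type II cell, interferon and complement lists lie right of the band's centre, and nearly all of mitosis and DNA replication lie left of it.

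Transcription factors of the lung epithelium moved in both directions. Of 25, 4 rose and 4 fell, a share close to the background in each direction. Cebpd, a factor induced by glucocorticoids, measured 7.63, 7.59 and 7.65 at E18.5 against 6.80, 6.67 and 6.61 at E17.5 (0.93, 1.91-fold, limma's adjusted p = 0.00105), where replicate 2 is the mean of 7.30 on array 2 and 7.88 on array 2b. Cebpa, a factor of type II cell maturation, rose 1.64-fold (adjusted p = 9e-06), and Elf5 and Foxp1 rose by 0.40 and 0.23. Mycn, a factor of growing distal epithelium, measured 6.83, 7.01 and 7.02 at E18.5 and 7.77, 7.73 and 7.74 at E17.5 (1.73-fold lower, adjusted p = 9e-05). The distal factor Foxp2 and the airway factor Sox2 fell by 0.78 and 0.35, and Nkx2-1 fell by 0.27. The call of Nkx2-1 was lost without replicate 2 of E18.5 (-0.22, adjusted p = 0.0511). Sox9, which marks the distal tips, measured 8.13, 8.04 and 7.82 at E18.5 and 8.12, 8.29 and 8.47 at E17.5, with overlapping replicates (adjusted p = 0.0754). Foxa1, Foxa2, Gata6 and Etv5 changed by 0.10 or less.

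The transport list held 28 genes, of which 14 rose and 3 fell, with 11 of the rises in all 6 fits without 1 replicate. Scnn1a, the alpha subunit of the sodium channel through which lung liquid is absorbed, measured 10.33, 10.17 and 10.49 at E18.5 and 9.40, 9.01 and 9.11 at E17.5 (1.16, SE 0.15, 2.23-fold, limma's adjusted p = 2e-06). Its partner subunits Scnn1b and Scnn1g rose 1.88-fold and 1.61-fold, the channel-activating protease Prss8 1.5-fold, and the sodium pump subunit Atp1b1 by 0.45. Other genes that act on the sodium channel did not pass: the kinase Sgk1 changed by -0.01 (adjusted p = 0.957), the ubiquitin ligase Nedd4l by 0.15 (adjusted p = 0.393) and the protease St14 by -0.05 (adjusted p = 0.612). Of the water channels, Aqp1 of capillaries rose 1.88-fold, while Aqp3 of airways (0.03, adjusted p = 0.910) and Aqp4 (0.20, adjusted p = 0.130) did not pass. Slc12a2, the cotransporter that loads epithelial cells with chloride, fell by 0.42 (adjusted p = 0.00057), and the chloride channel Ano1 fell by 0.33 (adjusted p = 0.0151), whereas the chloride transporter Slc26a9 rose by 0.39 (adjusted p = 0.0079). Cftr, the cystic fibrosis chloride channel, measured 7.86, 7.99 and 8.0 at E18.5 and 8.11, 7.93 and 7.91 at E17.5 and changed by -0.03 (adjusted p = 0.890).

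In the airways, club cell genes rose, and ciliated cell genes rose less often and by a smaller median change. Of 19 club and secretory cell genes, 10 rose and 1 fell (median 0.58). Retnla, a resistin-like protein, measured 11.55, 11.38 and 11.75 at E18.5 and 10.37, 10.14 and 9.91 at E17.5 (2.68-fold, limma's adjusted p = 5.1e-05), Scgb3a1, a secretoglobin of the larger airways, rose 2.15-fold, and the club cell enzymes Ces1d and Cyp2f2 rose 1.78-fold and 1.59-fold. Of 25 ciliated cell genes, 7 rose and none fell (median 0.14), and 4 rose without replicate 3 of E18.5. The ciliary tip protein Sntn was the largest of them (1.93-fold). Of 12 genes of basal and neuroendocrine cells, none rose and 2 fell, namely Krt15, a basal keratin (-0.79), and the neuronal hydrolase Uchl1 (-0.58). The keratins Krt4 and Krt13 of the esophagus list stood at 7.05 and 8.11 and at 7.30 and 8.22 in replicates 2 and 3 of E17.5, against 5.12 and 5.77 in replicate 1, and the part of such tissue in the change of Krt15, itself on that list, was not tested.

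Endothelial genes were mostly higher at E18.5. Of 19 genes of all endothelium, 12 rose and none fell (median 0.30), led by Ramp2, a receptor partner of adrenomedullin signalling (1.52-fold), the sialomucin Emcn (1.5-fold) and the claudin Cldn5 (1.5-fold). Of 18 alveolar capillary genes, 10 rose, all 10 in each fit without 1 replicate, and 2 fell (median 0.49). Car4 measured 9.44, 8.93 and 9.78 at E18.5 and 7.26, 6.96 and 6.64 at E17.5. Edn1, the vasoconstrictor endothelin, measured 8.51, 8.42 and 8.82 at E18.5 and 7.06, 7.29 and 7.34 at E17.5 (2.55-fold, limma's adjusted p = 6.5e-06). Tmem100, a membrane protein downstream of BMP signalling in endothelium, measured 9.70, 9.50 and 9.83 at E18.5 and 8.39, 8.28 and 8.36 at E17.5 (2.52-fold, adjusted p = 1.4e-09). The ages lay apart in Edn1 and Tmem100 too, whereas Car4 is of the largest rises, for which this was required. The adrenomedullin receptor Calcrl rose 1.86-fold and the prostaglandin dehydrogenase Hpgd 1.69-fold. Of 9 lymphatic genes 5 rose, among them the hyaluronan receptor Lyve1 by 0.47 and the growth factor receptor Flt4 by 0.45.

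Collagen genes fell as a group. Of 27 chains, 16 fell and 2 rose (median -0.34), with 12 of the falls in all 6 fits without 1 replicate. Col1a2, a chain of type I collagen, measured 11.34, 11.76 and 11.17 at E18.5 and 12.24, 12.32 and 12.43 at E17.5 (-0.91, SE 0.10, 1.88-fold lower, limma's adjusted p = 1.9e-07). Of the collagen chains, arrays 2 and 2b differed most in Col1a2: array 2 read 12.17, near E17.5, and array 2b 11.34. Over the whole list array 2 had a mean of 8.75, against 8.49 on array 2b, 8.51 and 8.41 on arrays 1 and 3, and 8.89, 8.79 and 8.87 at E17.5. Col18a1, the basement membrane chain that holds endostatin, fell 2.08-fold, and Col3a1, Col5a2 and Col15a1 fell by 0.64, 0.62 and 0.65.

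The elastic fibre list split, with 5 rises and 4 falls among 18 genes. The crosslinking enzyme Loxl1 rose 1.5-fold, Fbn2 and Emilin1 fell, and the number that rose was 1 without replicate 3 of E18.5 or without replicate 2 of E17.5. Of 21 smooth muscle and pericyte genes, 3 rose and 3 fell. Rgs5 of pericytes and the smooth muscle myosin Myh11 fell by 0.73 and 0.60, and the calcium channel Trpc6 and the pericyte gene Higd1b rose by 0.51 and 0.47. Of 21 genes of alveolar fibroblasts and lipofibroblasts, 9 rose and 2 fell. Apart from Inmt, Lpl, the lipase that takes up fatty acids, rose 2.07-fold, the glycogen primer Gyg 1.68-fold and the mesenchymal factor Tcf21 1.48-fold. Of 10 mesothelial genes 5 rose, with Msln, the mesothelin of the lung surface, 1.59-fold higher, and 3 rose without replicate 3 of E18.5 or without replicate 2 of E17.5.

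**Figure D3:**
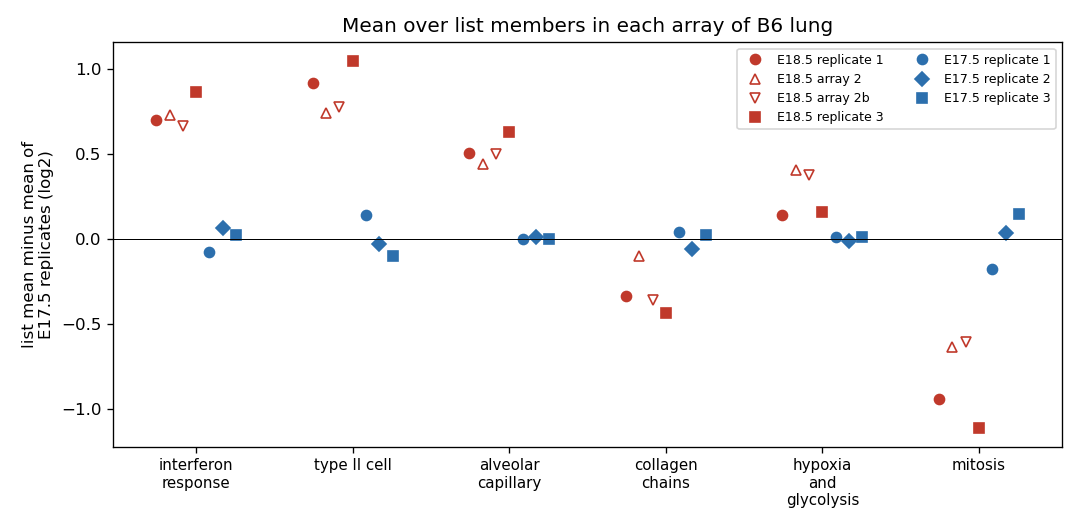
Mean over the members of selected gene lists in each B6 array at E18.5 and E17.5, less the mean of the E17.5 replicates, in log2 units, with arrays 2 and 2b also shown singly as open symbols. For collagen chains array 2 lies close to the E17.5 replicates, whereas for the interferon list both arrays lie with replicates 1 and 3.

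Most interferon-response genes rose. Of 33, 22 rose and none fell (median 0.78), 21 of them in all 6 fits without 1 replicate, and the list mean was 7.36, 7.36 and 7.52 at E18.5 against 6.58, 6.72 and 6.68 at E17.5. Rtp4, an interferon-induced chaperone, measured 9.10, 8.88 and 9.03 at E18.5 and 6.65, 7.51 and 7.26 at E17.5 (3.63-fold, limma's adjusted p = 2.5e-06). Ifit1, which binds foreign RNA, measured 6.77, 6.95 and 6.94 at E18.5 and 4.83, 5.23 and 5.12 at E17.5 (3.54-fold, adjusted p = 9.3e-07). Both were apart by more than 1 log2 unit. Irf7, the transcription factor that amplifies interferon production, measured 8.37, 8.04 and 8.49 at E18.5 and 6.46, 6.66 and 6.64 at E17.5 (3.28-fold, adjusted p = 2.1e-07). Rsad2, the antiviral enzyme viperin, measured 7.62, 7.62 and 8.14 at E18.5 and 5.96, 6.21 and 6.3 at E17.5 (3.11-fold, adjusted p = 5.5e-07). Replicate 3 was the highest of E18.5 for both genes, and the ages did not overlap. Oasl2, of the oligoadenylate synthetase family, rose 2.59-fold and Parp14, a mono-ADP-ribosyltransferase, 2.47-fold.

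The promoters of these genes and of the mitotic genes are shown because most members of each list passed the test in 1 direction, and the windows printed are ones that hold the letters searched. Sequences are from RefSeq on build GRCm38.p6, 250 bases before to 50 after the annotated start, and 15563 of the 19938 genes tested had such a window. The letters GAAANNGAA, the core of the element to which interferon-activated factors bind, were searched on both strands, where overlapping matches run together, and are in capitals in the first pair of windows. For the mitotic genes the cell cycle homology region (TTTGAA or TTTAAA, the second of which reads the same on both strands) and the CCAAT box (CCAAT) were searched on both strands and are in capitals in the second pair. Ifit1 is given at chr19:34640639-34640938 on the plus strand, Rsad2 at chr12:26456403-26456702 on the minus strand, Kif11 at chr19:37376132-37376431 on the plus strand and Ect2, a gene of cell division, at chr3:27153829-27154128 on the minus strand.
Ifit1: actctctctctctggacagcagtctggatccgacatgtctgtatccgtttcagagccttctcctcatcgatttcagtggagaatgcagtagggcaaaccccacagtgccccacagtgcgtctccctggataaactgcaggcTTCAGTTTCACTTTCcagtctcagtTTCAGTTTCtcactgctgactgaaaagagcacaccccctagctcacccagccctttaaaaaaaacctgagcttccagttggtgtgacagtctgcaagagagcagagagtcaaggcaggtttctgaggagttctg
Rsad2: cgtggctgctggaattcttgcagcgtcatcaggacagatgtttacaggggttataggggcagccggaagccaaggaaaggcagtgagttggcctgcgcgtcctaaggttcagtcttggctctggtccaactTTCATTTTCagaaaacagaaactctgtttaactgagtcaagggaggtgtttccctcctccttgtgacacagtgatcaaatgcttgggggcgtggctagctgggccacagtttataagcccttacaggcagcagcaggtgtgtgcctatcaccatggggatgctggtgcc
Kif11: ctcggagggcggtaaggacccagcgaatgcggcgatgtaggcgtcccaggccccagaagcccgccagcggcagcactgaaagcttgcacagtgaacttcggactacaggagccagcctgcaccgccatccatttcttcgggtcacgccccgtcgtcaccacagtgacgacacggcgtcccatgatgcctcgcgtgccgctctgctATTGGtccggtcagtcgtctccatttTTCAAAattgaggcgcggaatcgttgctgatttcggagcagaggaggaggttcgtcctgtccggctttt
Ect2: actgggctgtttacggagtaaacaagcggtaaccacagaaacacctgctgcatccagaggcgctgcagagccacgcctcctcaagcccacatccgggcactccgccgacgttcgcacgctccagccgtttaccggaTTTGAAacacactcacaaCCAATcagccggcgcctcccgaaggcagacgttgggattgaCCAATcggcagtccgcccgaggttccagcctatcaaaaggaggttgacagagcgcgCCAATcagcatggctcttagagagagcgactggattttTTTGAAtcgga
The letters GAAANNGAA stood in 13 of 22 interferon list windows (59.1%), in 13.6% of the 426 windows of genes called higher and in 7.93% of all windows. The windows of Irf7 and Oasl2 held no match, that of Bub1 held no cell cycle homology region and that of Kif2c no CCAAT box. The cell cycle homology region stood in 31 of 36 mitosis windows (86.1%), in 8 of 37 DNA replication windows (21.6%), in 43.1% of the 262 windows of genes called lower and in 24.0% of all. The CCAAT box stood in 72.2% of mitosis windows, in 59.5% of DNA replication windows, in 61.1% of those called lower and in 38.3% of all. Such matches describe letters in a fixed window and do not show binding.

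Complement and other defense genes rose as well. Of 21 complement genes, 13 rose and none fell (median 0.53). C6 measured 7.41, 7.18 and 7.55 at E18.5 and 5.70, 5.63 and 5.15 at E17.5, and Hc, which encodes complement C5, 11.03, 10.89 and 11.29 at E18.5 and 9.76, 9.40 and 9.29 at E17.5 (3.00-fold, limma's adjusted p = 8.3e-08). C7 rose 2.61-fold, the protease C1s1 1.98-fold and Cd55, which shields cells from complement, 1.92-fold. Of 41 genes of innate defense and inflammation, many of them named by the study from these samples and so not independent evidence of a direction, 22 rose and 2 fell. Lcn2 measured 10.25, 10.01 and 10.64 at E18.5 and 8.26, 8.01 and 8.12 at E17.5. Lyz1 measured 13.15, 12.89 and 13.30 at E18.5 and 11.10, 10.75 and 10.56 at E17.5.

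Macrophage and monocyte markers were also higher at E18.5, beside these defense genes, while neutrophil markers were so less often and lymphocyte markers were not. Of 26 macrophage and monocyte genes, 14 rose and none fell (median 0.31), and the list mean was 7.38, 7.27 and 7.40 at E18.5 against 6.83, 6.88 and 6.84 at E17.5. Mpeg1, a pore-forming protein of macrophages, rose 1.90-fold and C1qa, made by macrophages, 1.77-fold. Of 19 neutrophil genes 7 rose (median 0.17), and 3 did once dim probe sets were left out, with list means of 5.90, 5.79 and 6.03 at E18.5 against 5.52, 5.61 and 5.50 at E17.5. Car4 and Lyz2 stand in the macrophage list and Lcn2 in the neutrophil list but are also made by lung endothelium or epithelium. Of 9 thymus and lymphocyte genes, 0 rose and 1 fell. Of 15 genes of antigen presentation, 6 rose and 1 fell, among them the protease Ctss (1.93-fold) and B2m, the light chain of class I molecules (1.52-fold). The part of leukocyte number in the rise of the defense lists was not tested.

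Genes of cell division fell almost without exception. The study named some of them, among them Bub1, as falling in these samples, so their direction is not independent evidence. Of 45 mitosis genes, 44 fell and 1 rose (median -0.92), and the same number, 44, had E18.5 replicates wholly below those of E17.5, which 19.1% of all probe sets did. In all 6 fits without 1 replicate 41 of the falls held. The list mean was 7.57, 7.89 and 7.40 at E18.5 against 8.34, 8.55 and 8.66 at E17.5, with replicate 2 of E18.5 nearest to E17.5 on both of its arrays (7.88 on array 2 and 7.91 on array 2b). Kif11, the motor that separates the spindle poles, measured 7.31, 8.02 and 7.15 at E18.5 and 8.75, 9.06 and 9.21 at E17.5 (-1.51, SE 0.21, 2.86-fold lower, limma's adjusted p = 4.7e-06). Bub1 measured 7.01, 7.84 and 7.20 at E18.5 and 8.46, 8.79 and 8.89 at E17.5 (2.57-fold lower, adjusted p = 1.3e-06). Replicate 2 was the highest of E18.5 in both genes. Mki67, the proliferation marker Ki-67, measured 8.81, 9.22 and 8.50 at E18.5 and 9.78, 9.97 and 10.19 at E17.5 (2.20-fold lower, adjusted p = 6.5e-06), and Top2a, the topoisomerase of dividing cells, fell 2.28-fold (both chosen after their values were seen, as common markers of dividing cells). The member that rose was Cdc25b, a phosphatase that activates cyclin-dependent kinases, by 0.40 (adjusted p = 0.00055, also chosen after its value was seen).

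Of 45 DNA replication genes 37 fell and none rose (median -0.58). The study named Mcm genes, among them Mcm3, as falling in these samples, so their direction is not independent evidence either. Mcm3, a subunit of the replicative helicase, measured 7.69, 7.90 and 7.59 at E18.5 and 8.71, 8.98 and 9.30 at E17.5 (2.41-fold lower, limma's adjusted p = 1.9e-07), and the DNA polymerase subunits Pola1 and Pole fell 2.24-fold and 2.16-fold. Uhrf1, which guides maintenance methylation to new DNA, fell 2.22-fold. Among 26 chromatin regulators chosen by the study on these samples, whose direction is therefore not independent evidence, 15 fell and none rose, with Hells, a remodelling helicase, 1.97-fold lower, the nuclear lamin Lmnb1 1.72-fold lower and the maintenance methyltransferase Dnmt1 1.66-fold lower. Of 19 cell cycle inhibitors and D cyclins, 4 rose and 5 fell. The inhibitors Cdkn1b and Cdkn2b rose by 0.53 and 0.57, whereas Cdkn2c and Cdkn1c fell by 0.88 and 0.49. Of 24 ribosomal protein and translation genes 8 fell and none rose, and 4 fell without replicate 3 of E17.5.

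Signals of branching and growth fell or rose by member. Of 35 branching genes, 9 rose and 10 fell. Shh, the hedgehog ligand of the epithelium, measured 8.28, 8.40 and 8.08 at E18.5 and 9.06, 9.14 and 9.08 at E17.5 (1.79-fold lower, limma's adjusted p = 6.1e-07), its signal transducer Smo fell 1.48-fold and the ligand Wnt5a fell 1.58-fold. Bmp2 rose 1.97-fold. Of 24 imprinted and fetal growth genes, 6 rose and 10 fell, and 6 fell when each array was centred on its median. Igfbp3, the main carrier of insulin-like growth factors, measured 8.70, 8.25 and 8.70 at E18.5 and 6.94, 7.03 and 7.0 at E17.5 (2.95-fold, adjusted p = 1.6e-07), and Grb10, an imprinted brake on insulin signalling, measured 10.72, 11.17 and 10.68 at E18.5 and 11.80, 11.80 and 11.87 at E17.5 (1.95-fold lower, adjusted p = 1e-08). Neither gene's ages overlapped.

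Hormone, clock and oxygen genes included several strong rises. Of 22 genes of the glucocorticoid receptor, its enzymes and its targets, 11 rose and 2 fell, 7 rising without replicate 3 of E18.5. The targets Sult1a1, Tsc22d3 and Klf9 rose 1.94-fold, 1.87-fold and 1.75-fold, and the receptor gene Nr3c1 changed by -0.20 (limma's adjusted p = 0.0854). Of 18 circadian clock genes 9 rose and none fell, among them Arntl by 0.54, Nfil3 by 0.62 and Bhlhe41 by 0.85. Clock time of collection was not given in the sources used here, although the study's methods place the B6 sampling times a day apart. Of 24 hypoxia and glycolysis genes, 9 rose and 2 fell. Epas1, the hypoxia-inducible factor of endothelium, measured 10.25, 9.91 and 10.41 at E18.5 and 9.32, 8.77 and 9.04 at E17.5 (2.21-fold, adjusted p = 2.6e-08). The mitochondrial protein Bnip3 rose 1.92-fold with replicate 2 the highest (10.08, 10.63 and 10.21 at E18.5 against 9.43, 9.43 and 9.23 at E17.5), and the list mean was also highest there, at 9.44, against 9.19 and 9.21 in the other replicates of E18.5.

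Detoxifying enzymes rose in 15 of 26 cases and fell in 1. Next to Inmt these were led by Aox3, an aldehyde oxidase (2.72-fold), the cytochromes Cyp4b1 (2.32-fold) and Cyp2e1 (2.14-fold), and Ephx1, an epoxide hydrolase (1.96-fold). Of 26 antioxidant genes, 7 rose and 1 fell. Gpx3 measured 10.92, 10.31 and 10.98 at E18.5 and 8.95, 8.42 and 8.81 at E17.5. Its replicate 2 of E18.5 is the mean of 9.83 on array 2 and 10.79 on array 2b. The thioredoxin reductase Txnrd1 fell 1.66-fold. Of 11 erythroid genes 2 rose and 1 fell: Alas2, the first enzyme of haem synthesis in red cells, rose 1.83-fold, and the transferrin receptor Tfrc, which dividing cells also use, measured 8.95, 8.58 and 8.80 at E18.5 and 9.87, 9.81 and 10.05 at E17.5 (2.20-fold lower, limma's adjusted p = 2.9e-07).

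Over the day before, E17.5 against E16.5, the lists had moved unequally; that step shares its E17.5 samples with the one described here, and each is given on its own. The mitosis and DNA replication lists had medians of -0.77 and -0.76 then, against -0.92 and -0.58 in the E18.5 step. The type I cell list had a median of 0.86, against 0.47 at E18.5, and type II cells 0.84, against 0.79. The interferon, complement and macrophage lists had medians of 0.39, 0.18 and 0.11, against 0.78, 0.53 and 0.31 in the E18.5 step, and collagen chains 0.03, against -0.34. Whether the steps differed was not tested.

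The same day in A/J lungs, E18.5 against E17.5, was set beside the B6 step. The difference between the changes was tested within the fit of all 12 groups. The B6 change was higher in 27 probe sets and lower in 146, which is 0.124% and 0.67% of those tested, at an adjusted p under 0.05 and a difference of at least 1.5-fold. Most of the lower ones did not outlast a change of scale: with each array centred on its median the counts were 37 and 6, with 26 and 6 called on both scales, so the larger number of calls lay on the lower side as deposited and on the higher side with centred arrays. The median of all probe sets changed by -0.03 in B6 and by 0.12 in A/J. When limma was fitted to the 4 groups concerned alone, 0 probe sets passed and 3310 had an unadjusted p under 0.05, so every call here rests on the spread pooled over all groups.

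Inmt had the largest such difference. It rose by 3.97 in B6 and 1.70 in A/J, a difference of 2.27 (limma's adjusted p = 0.014), and at E17.5 it stood at 6.25 ± 0.16 in B6 against 8.76 ± 0.11 in A/J, and at E18.5 at 10.22 ± 0.75 in B6 against 10.46 ± 0.59 in A/J (SD, n = 3 each). Among interferon genes, Rsad2 rose by 1.64 in B6, against 0.03 in A/J (difference 1.60, adjusted p = 0.00858), and Ifit1 by 1.82 in B6, against 0.32 in A/J (1.51, adjusted p = 0.022). For Rsad2 the A/J level was 7.10 ± 0.32 at E17.5, above the 6.16 ± 0.18 of B6, while Ifit1 stood at 5.06 ± 0.21 in B6 and 4.68 ± 0.17 in A/J at that age. Those 2 were the only members of the interferon list whose changes differed at an adjusted p under 0.05 on the deposited scale (3 with centred arrays), although the list median was 0.78 in B6 and 0.36 in A/J. Hdc rose by 1.92 in B6 and changed by 0.47 in A/J (1.46, adjusted p = 0.022). Cldn6 fell by 1.61 in B6 and changed by -0.53 in A/J (-1.08, adjusted p = 0.014). These 5 differences held with centred arrays and in all 6 fits without 1 replicate. Against the next A/J step, given below, only that of Inmt passed.

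Mitosis genes had a median of -0.92 in B6 and -0.28 in A/J over that day, with 44 of 45 falling in B6 and 15 in A/J, but the difference of changes passed for 4 of them on the deposited scale and for none with centred arrays. DNA replication genes had medians of -0.58 and -0.16, with 6 differences on the deposited scale and none with centred arrays. In other lists, among them type I cells (0.47 in B6 and 0.36 in A/J), surfactant (0.43 and 0.30), club cells (0.58 and 0.51) and complement (0.53 and 0.47), the medians lay closer together.

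**Figure D4:**
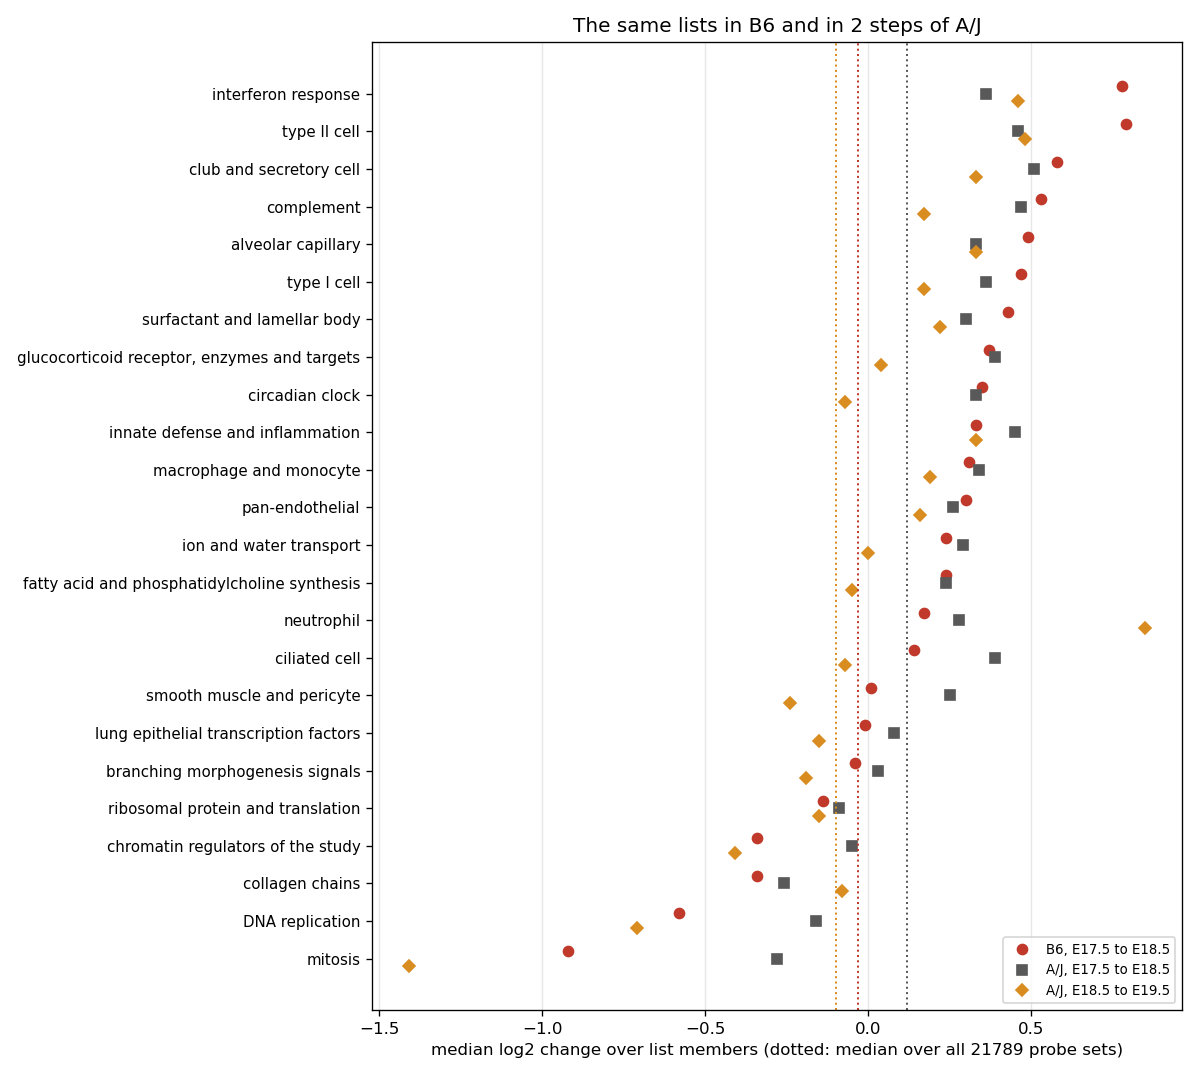
Median log2 change of gene lists in B6 between E18.5 and E17.5, in A/J over the same day and in A/J between E19.5 and E18.5, with dotted lines at the median of all probe sets in each step. For mitosis the B6 median of -0.92 lies between the A/J medians of -0.28 and -1.41.

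B6 pups are born more than a day earlier than A/J pups, so the B6 step was also compared with the next A/J step, E19.5 against E18.5, which lies nearer to it in time before birth but does not match it exactly. More changes differed: 928 probe sets changed more upward in B6 and 289 more downward, which is 4.26% and 1.33% of those tested. With centred arrays the counts were 778 and 335, and 778 and 289 were called on both scales. After quantile normalization they were 401 and 331, so the excess on the higher side was much smaller. The median of all probe sets changed by -0.03 in B6 and by -0.1 in this A/J step. Mitosis genes had a median of -0.92 in B6 and -1.41 in A/J, complement genes 0.53 and 0.17, and neutrophil genes 0.17 and 0.85. Of 19 neutrophil genes, 5 had a lower change in B6, 6 with centred arrays. Ly6g, a surface protein of neutrophils chosen after its value was seen, changed by -0.17 in B6 and 1.56 in A/J, a difference of -1.73 (limma's adjusted p = 9.4e-05). Gpx3 rose by 2.01 in B6 and changed by 0.42 in A/J, and Spock2 rose by 1.07 in B6 and changed by -0.25 in A/J, differences of 1.59 and 1.32. Inmt, which differed at the same ages, also differed here (1.81 in A/J, difference 2.16, limma's adjusted p = 0.00123). Rsad2, Ifit1, Hdc and Cldn6 did not pass (limma's adjusted p of 0.0602, 0.161, 0.286 and 0.261). In this A/J step they changed by 0.89, 1.18, 1.44 and -1.95. Both tests of A/J steps share the same B6 samples and the A/J samples of E18.5.

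The time courses place the step in the whole series. Over the 5 sampled days of B6, from E15.5 to E18.5 and then the day of birth, Inmt averaged 4.90, 5.09, 6.25, 10.22 and 11.88, so its steepest rise fell in this step. Ifit1 averaged 4.66, 4.67, 5.06, 6.89 and 6.25, with its highest mean at E18.5, and Hdc 6.51, 6.98, 7.23, 9.15 and 8.58. Mki67 averaged 10.76, 10.56, 9.98, 8.84 and 8.10 and Cldn6 10.73, 10.40, 9.29, 7.68 and 7.11, both lower at each later time. Over the 3 days from E17.5 to E19.5 in A/J, Ifit1 averaged 4.68, 4.99 and 6.17, Hdc 7.46, 7.92 and 9.36, and Cldn6 9.49, 8.97 and 7.02.

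**Figure D5:**
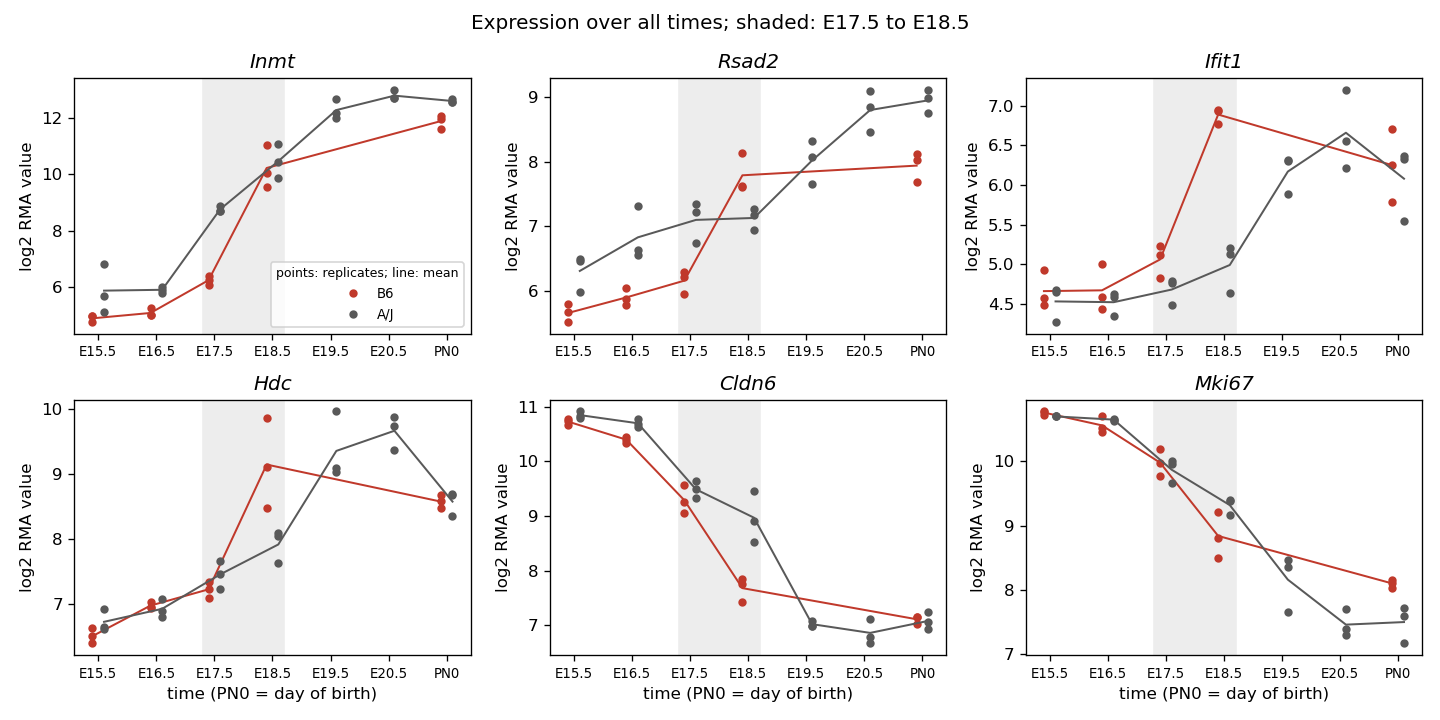
Log2 expression of Inmt, Rsad2, Ifit1, Hdc, Cldn6 and Mki67 at all sampled times in B6 and A/J, with a point per replicate and lines through the means, and with E17.5 to E18.5 shaded. In B6, Inmt averages 6.25 at E17.5 and 10.22 at E18.5, and Ifit1 has its highest B6 mean, 6.89, at E18.5.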

How the data were processed

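The authors normalized Mouse Gene 1.0 ST arrays by RMA in Affymetrix Expression Console 1.1, as the submitters' processing notes state, and deposited log2 values, which were used as they were. Probe sets were named through the platform annotation, and those with 1 symbol were tested (1621 had several and 12146 none). The highest-mean probe set stood for a gene. A model with 12 group means was fitted to 36 replicates in limma 3.58.1 under R 4.3.3 (24 residual degrees of freedom), with Benjamini-Hochberg adjustment over 21789 probe sets; SE is limma's moderated error. The script was tested on simulated data. The number of arrays limits the precision. The members, gene lists and tests were chosen with earlier results of these data known. Named genes were the 12 largest non-overlapping rises and falls, up to 6 members of each list by size of change (any member for the surfactant, type I, type II, transcription factor and transport lists), the 5 largest differences from A/J in each direction, and genes the study names. Alternatives covered the samples fitted, arrays 2 and 2b, scaling, dim probe sets, probe sets per gene, thresholds and each replicate left out. Figures used matplotlib 3.10.9 in Python 3.11.15.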

Additional observations from a re-analysis of the deposited data

Results flagged for a closer look

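These genes changed differently in B6 and in A/J between E18.5 and E17.5 by limma's test of the difference itself, in the fit of all 12 groups, among the list members, the largest changes of B6 and the 5 largest differences in each direction, and those outside the naming rule were chosen after their values were seen. When only the 4 groups concerned were fitted, none of the 27 passed, with adjusted p between 0.0548 (Ifit1) and 0.200 (Tmem100). Inmt differed by 2.27 (adjusted p = 0.014), Rsad2 by 1.60, Ifit1 by 1.51, Hdc by 1.46 and Cldn6 by -1.08, as described above.

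Further genes had a higher change in B6 on the deposited and the centred scale. C6 rose by 1.88 in B6 and 0.93 in A/J, a difference of 0.95 (adjusted p = 0.0324). Lyz2 differed by 0.79 (adjusted p = 0.0386), Pla2g1b by 0.70 (adjusted p = 0.0151) and Tmem100 by 0.61 (adjusted p = 0.0423). Fabp5 rose by 0.92 in B6 and changed by 0.21 in A/J, a difference of 0.70 (adjusted p = 0.0244). The peptide transporter gene Slc15a2 fell by 0.41 in B6 and 1.11 in A/J, a difference of 0.70 (adjusted p = 0.047). Zfp975, a zinc finger gene, changed by 0.44 in B6 and -1.04 in A/J, a difference of 1.48 (adjusted p = 0.0368).

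The other genes had a lower change in B6 on the deposited scale only, with adjusted p between 0.0662 and 0.255 when each array was centred on its median. Ifi202b, an interferon-inducible gene, changed by -0.23 in B6 and 0.81 in A/J, a difference of -1.04 (adjusted p = 0.0231). Olfr1148, an olfactory receptor gene, differed by -1.34, the lipid droplet gene Plin4 by -0.75, Igfbp2 by -0.77, and the striated muscle genes Smpx and Mylpf by -0.96 and -0.63. Of mitosis genes, the transcription factor Foxm1 differed by -0.59, the checkpoint gene Mad2l1 by -0.71, the kinase Aurka by -0.78 and the motor Kif23 by -0.81. Of replication genes, the primase subunit Prim1 differed by -0.97 (-1.06 in B6 and -0.08 in A/J), the reductase subunit Rrm2 by -0.79, the helicase subunits Mcm7 and Gins1 by -0.64 and -0.82, and the polymerase subunit Pole by -0.81. For Zfp975, Olfr1148 and Smpx, 4 of the 6 fits without 1 replicate lost the call.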

How the results depend on the processing

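The counts of the B6 step (604 higher and 350 lower) stayed within 1.5 times under every scaling, variance and sample setting tried. The exceptions were thresholds and probe sets: with no fold threshold 2774 were higher and 2392 lower, with a fold of 2 they were 111 and 52, and over all probe sets, named or not, 619 were lower. Without 1 replicate they ranged from 465 to 834 higher and from 288 to 452 lower. The count that differed from A/J at the same ages (173 in all) was 43 with centred arrays, 36 after quantile normalization, 98 without dim probe sets, 332 with no fold threshold, 9 at a fold of 2, 0 in a fit of the 4 groups alone, and 72 to 175 without 1 replicate (72 without replicate 3 and 91 without replicate 2 of E17.5). That against A/J between E19.5 and E18.5 (1217) was 732 after quantile normalization (401 higher and 331 lower), 1956 over all probe sets, 3849 with no fold threshold, 80 at a fold of 2, and 829 to 1552 without 1 replicate. The cause of these shifts was not tested. No called change of a named gene turned its sign, but the split of the difference from A/J at the same ages did turn: 27 were higher and 146 lower as reported, against 37 and 6 with centred arrays, 30 and 6 after quantile normalization and 6 and 3 at a fold of 2. Of 478 changes of named genes, 342 passed in all 6 fits without 1 replicate. Replicate numbers are shared only as numbers: same-numbered samples deviated together with r = 0.0688, 0.325 and 0.167. Each E18.5 replicate correlated best with its own number, which is a hint from the data and not from the design. With the replicate block the counts were 604 and 350 in the B6 step, 156 for the difference from A/J at the same ages and 1195 for the other. Few replicates and 1 averaged array limit the precision. Probe sets with a mean under 6.42 were counted as dim, and background may limit a fold there. Among the genes named, Inmt, Pon1, Spink5, C6, C1s1, Bmp2, Aox3, Ifit1, Rsad2, Bhlhe41, Sntn, Nppa and Aqp3 lay below it at E17.5. Krt4, Krt13 and Gins1 lay below it at E18.5, and Ly6g, Mylpf and Plin4 at both ages. That list leaves out Olfr1148, Zfp975, Smpx and Ifi202b, whose levels are not given. Of the 10 largest differences from A/J at the same ages, 6 remained once dim probe sets were left out.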

Other observations

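Some members of the lists on immediate early genes, fat oxidation and tissue proteases also moved. Of 28 immediate early genes, 6 rose and 2 fell, beside 12.7% and 11.0% of all probe sets. In all 6 fits without 1 replicate 3 of the rises and 0 of the falls held. Zfp36, which destabilizes inflammatory mRNAs, rose 1.60-fold with 8.67, 8.52 and 8.57 at E18.5 against 7.92, 7.93 and 7.87 at E17.5 (limma's adjusted p = 0.0002). The phosphatase Dusp1 rose 1.52-fold and Myc fell by 0.48. Of 21 genes of fat oxidation and fasting 6 rose and none fell, among them the fatty acid transporter Cd36 (1.66-fold), and 2 of these rises held in all 6 fits. Of 23 matrix proteases and inhibitors, 6 rose and 4 fell, and 3 rose without replicate 2 of E17.5. The inhibitor Timp3 measured 12.10, 11.81 and 12.10 at E18.5 and 11.49, 11.14 and 11.19 at E17.5 (1.66-fold, adjusted p = 5.9e-06), whereas the gelatinase Mmp2 measured 10.73, 10.78 and 10.65 at E18.5 and 11.16, 11.26 and 11.30 at E17.5 (1.44-fold lower, adjusted p = 9.8e-07).

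Of 18 tight junction and adhesion genes, 7 rose and 3 fell, and 4 rose without replicate 3 of E18.5; beside the fall of Cldn6, the junction molecule F11r rose 1.49-fold and the claudin Cldn3 1.34-fold. Of 21 laminin, integrin and basement membrane genes, 2 rose and 6 fell, and 2 fell without replicate 3 of E18.5. Of 12 early regulators chosen by the study on these samples, which is no independent evidence of a direction, none rose and 7 fell, and 4 fell without replicate 1 or without replicate 3 of E18.5.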
